A study of Mus musculus with 18 samples.

Results

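The comparison set RAW264.7 cells deficient in Kdm7a against RAW264.7 cells given a control guide RNA, both after M2 stimulation for 48 h. It rests on 6 of the 18 libraries of the series, chosen by their labels: 3 knockout libraries and 3 control libraries. RAW264.7 is a mouse macrophage-like tumour line that grows in culture. The knockout was made by CRISPR/Cas9 with a guide RNA to Kdm7a. For M2, cells of both genotypes received mouse interleukins 4, 10 and 13 at a dose of 20 ng/ml and human TGF-beta 1 at 2 ng/ml. The other 12 libraries hold the same genotypes, 3 libraries each, under M1 (mouse interferon gamma at 2 ng/ml with lipopolysaccharide at 0.1 µg/ml, also 48 h) and without stimulation (M0). The series' own text speaks of a single knockout line, so a difference between lines that does not come from Kdm7a cannot be told apart from an effect of the knockout. The labels do not say whether replicates were separate cultures, and the tests therefore see only library-to-library spread, which could be technical.

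Kdm7a (also called Jhdm1d) is a histone demethylase of the Jumonji class. It binds trimethylated lysine 4 of histone H3 through a PHD finger and takes methyl groups off repressive marks of histone H3 and H4. Interleukins 4 and 13 act on macrophages through receptors that share the IL-4 receptor alpha chain and through the transcription factor STAT6. IL-10 acts through STAT3, and TGF-beta acts through SMAD factors. M2 macrophages of mice are known for arginase 1, for lectins and scavenger receptors, for transglutaminase 2 and for raised antigen presentation on MHC class II, whose genes are switched on by the coactivator CIITA.

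Levels are given in TPM, a gene's share of all transcripts scaled to the same total in each library, and a mean ± SD has n = 3. The 6 libraries held between 10785 and 10884 genes at 1 TPM or more. Correlations of log2 values across the 11548 tested genes were 0.994 to 0.996 within a group and 0.987 to 0.988 between genotypes. The sequencing depth is unknown, because TPM keeps none. Of the macrophage identity genes, 20 of the 22 measured could be tested, and their summed level ran from 7235 to 7585 TPM in knockout libraries and from 7985 to 8275 TPM in control libraries. Lyz2, a member of this list, averaged 1034 ± 57.4 TPM in knockout cells and 1981 ± 11.9 TPM in control cells. Of the tested members, 7 were called higher in knockout cells and 5 lower. The B and T cell markers summed to 22.2 to 25.3 TPM in knockout libraries and 17.8 to 20.9 TPM in control libraries, and 8 of the 14 were at 0 in all 6. Most of that sum was Cd79a, at 20.3 ± 0.849 TPM in knockout cells and 13.7 ± 0.996 TPM in control cells. Without stimulation Cd79a averaged 2.35 ± 0.263 TPM in knockout cells and 2.13 ± 0.378 TPM in control cells. The fibroblast, epithelial and endothelial markers summed to 3.45 to 4.14 TPM in knockout libraries and 1.32 to 2.02 TPM in control libraries. The neutrophil and mast cell markers summed to 31.9 to 33.6 TPM in knockout libraries and 30.1 to 31.6 TPM in control libraries, with 9 of 12 at 0 in all 6.

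Kdm7a itself read 5.83, 7.54 and 7.04 TPM in knockout libraries, against 24.5, 23.3 and 22.2 TPM in control libraries. The gene lies at chr6:39136620-39206773 of GRCm38. All 3 knockout libraries lay below all 3 control libraries, at 29.2% of the control mean, and Kdm7a fell by 1.65 ± 0.07 (SE) on the log2 scale (adjusted p = 6.05e-13). Fold changes were taken between log2(TPM + 1) values, so that those of low genes come out smaller than in TPM, and the adjusted p comes from limma over all tested genes. The cut by the nuclease need not remove the transcript, so the level tells that the libraries carry different Kdm7a transcript amounts and not how much protein was left.

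Under M2, 1462 of the 11548 tested genes were higher in knockout cells (12.7%) and 2108 were lower (18.3%) at an adjusted p below 0.05. By 2-fold or more, 92 rose and 59 fell. The split between directions depended on scaling. Of all called genes, 41.0% were higher with TPM as deposited, 56.1% after trimmed-mean factors and 55.3% after median-ratio factors, with medians over all tested genes of -0.03, -0.0016 and -0.0029 on the log2 scale. Knockout replicate 1 stood apart in its scaling factor (1.05, against 1.09 to 1.12 in the other 5 libraries), and without it 50.1% of called genes were higher. The numbers changed by 2-fold or more moved little with scaling, to 95 higher and 51 lower after trimmed-mean factors.

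**Figure D1:**
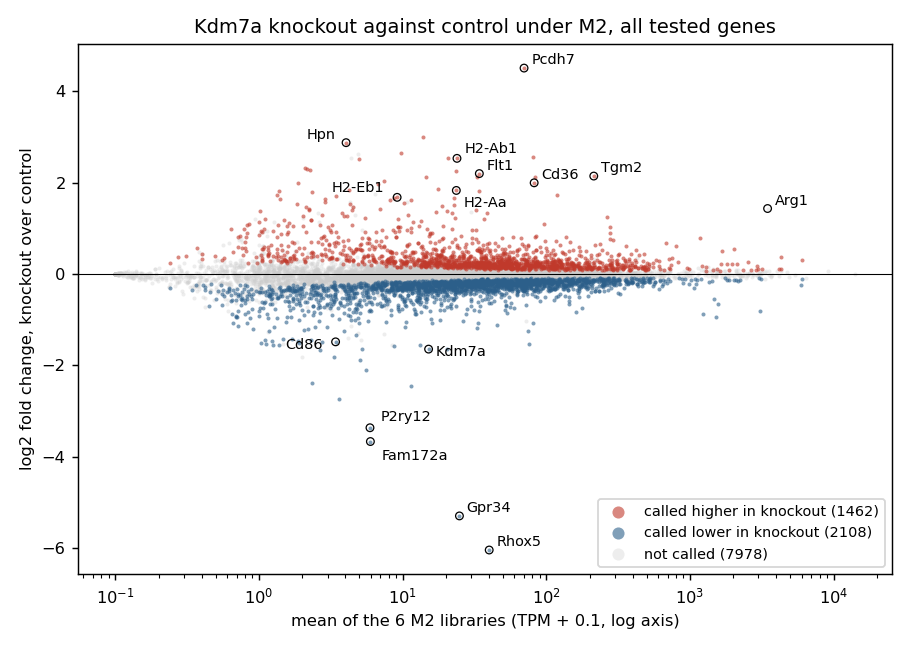
Log2 fold change of knockout over control under M2 (vertical axis) against the mean level of the 6 M2 libraries in TPM plus 0.1 on a log axis, 1 point per tested gene. The 1462 genes called higher are red and the 2108 called lower are blue. Pcdh7 is the highest point and Rhox5 the lowest, while Arg1 at the far right is circled but not called.

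The chains of MHC class II molecules were among the largest rises. Of 15 tested members of the class II presentation list, 9 were higher in knockout cells and 1 was lower, beside 12.7% and 18.3% of all tested genes. That one, the regulator subunit Rfxank, is named after its value was seen. Their median log2 fold change was 0.56, against -0.03 over all tested genes. H2-Ab1, which encodes the beta chain of the I-A molecule, read 44.0, 40.2 and 39.6 TPM in knockout libraries and 5.92, 6.43 and 6.57 TPM in control libraries. Its log2 fold change was 2.53 ± 0.09 (SE, adjusted p = 2.30e-14), and the 2 groups were far apart. H2-Aa, the alpha chain of the same molecule, read 33.1, 41.5 and 37.4 TPM in knockout libraries and 10.5, 9.89 and 8.87 TPM in control libraries (log2 fold change 1.83, adjusted p = 8.97e-11). H2-Eb1, the beta chain of I-E, read 14.03, 14.3 and 14.7 TPM in knockout libraries, against 3.47, 4.04 and 3.86 TPM in control libraries (log2 fold change 1.68, adjusted p = 1.55e-11).

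All 3 chains stood higher in each knockout library than in any control library. H2-Ea-ps, listed under its name as a pseudogene in the reference strain, read 39.9, 39.5 and 37.9 TPM in knockout libraries and 7.39, 8.35 and 6.48 TPM in control libraries. RAW264.7 comes from another mouse strain than the reference, and MHC genes differ between strains, so levels of this family are uncertain. H2-DMb1, a chain of the peptide loading molecule H2-M, averaged 10.5 ± 1.48 TPM in knockout cells and 3.29 ± 0.522 TPM in control cells. Cd74, the invariant chain that guards the peptide groove, was abundant in both, with 1493, 1451 and 1538 TPM in knockout libraries and 911, 859 and 831 TPM in control libraries. Ciita, the coactivator, read 42.0, 44.9 and 45.8 TPM in knockout libraries and 28.0, 29.2 and 27.8 TPM in control libraries. Its log2 fold change of 0.62 was smaller than those of the chains, and its call was lost with a pseudocount of 0.1 TPM (adjusted p = 0.0540).

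H2-Ab1, H2-Aa and H2-Eb1 are neighbours on chromosome 17, at chr17:34263227-34269418, chr17:34282744-34287823 and chr17:34305867-34316674 of GRCm38. The promoters of H2-Aa (chr17:34287774-34288073, minus strand) and H2-Eb1 (chr17:34305617-34305916, plus strand) are shown because both genes rose, and that of H2-Oa (chr17:34092129-34092428, plus strand), a chain of the modulator H2-O, because it did not pass the test (log2 fold change -0.05, adjusted p = 0.757). Each runs from 250 bases before to 50 bases after the gene's start in RefSeq on GRCm38.p6. Capitals mark the core of the X box, GCAAC, and the Y box, CTGATTGG, the elements of class II promoters that the RFX and NF-Y complexes bind and on which CIITA is recruited.
H2-Aa: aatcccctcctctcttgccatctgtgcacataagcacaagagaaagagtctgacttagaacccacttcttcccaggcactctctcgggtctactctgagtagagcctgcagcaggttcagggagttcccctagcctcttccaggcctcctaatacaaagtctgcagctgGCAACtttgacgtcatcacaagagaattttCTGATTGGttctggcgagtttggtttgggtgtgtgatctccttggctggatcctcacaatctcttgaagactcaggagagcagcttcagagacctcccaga
H2-Eb1: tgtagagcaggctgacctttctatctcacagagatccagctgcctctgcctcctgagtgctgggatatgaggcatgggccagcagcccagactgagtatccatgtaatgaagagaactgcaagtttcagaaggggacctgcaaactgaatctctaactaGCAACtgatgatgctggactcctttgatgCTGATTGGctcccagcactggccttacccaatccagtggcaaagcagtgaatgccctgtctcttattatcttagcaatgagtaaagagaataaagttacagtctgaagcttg
H2-Oa: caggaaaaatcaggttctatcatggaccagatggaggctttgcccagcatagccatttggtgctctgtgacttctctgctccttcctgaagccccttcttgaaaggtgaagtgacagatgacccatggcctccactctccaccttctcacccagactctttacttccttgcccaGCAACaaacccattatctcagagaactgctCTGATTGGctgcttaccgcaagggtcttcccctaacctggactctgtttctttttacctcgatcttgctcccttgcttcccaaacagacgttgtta
The pair, with 20 to 30 bases between its elements, was sought on both strands of every promoter in the RefSeq table. The letters and the spacing were chosen after these sequences had been read, and neither motif overlaps the other. Of 32851 promoters, 22 held it (0.067%), among them 4 of the 13 promoters of the 12 MHC class II genes with an entry. These 4 were H2-Aa, H2-Eb1, H2-Eb2 and H2-Oa. In H2-Aa the X box core began 81 bases before the gene's start and the Y box 51 bases before it. The same letters thus stood before a gene that rose and a gene that did not pass the test. H2-Ab1, Ciita, Cd74 and Rfxap were not matched.

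Under the other conditions the class II chains were nearly silent. Without stimulation, H2-Aa reached at most 0.41 TPM and H2-Eb1 at most 0.19 TPM in any library of either genotype, and under M1 at most 0.21 TPM and 0.07 TPM. H2-Ab1 was an exception: without stimulation it read 4.32, 3.94 and 5.13 TPM in knockout libraries and 0.53, 0.44 and 0.34 TPM in control libraries. Ciita did not pass 0.28 TPM without stimulation or 0.10 TPM under M1. Cd74, by contrast, was well above 0 in every condition, with 504 ± 27.5 TPM in knockout cells and 506 ± 12.6 TPM in control cells without stimulation. Under M1 it averaged 1719.8 ± 60.6 TPM in knockout cells and 837 ± 20.2 TPM in control cells.

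Of 22 tested genes of MHC class I presentation, each direction held 3, with a median of 0.02. Over all tested genes, 12.7% were higher and 18.3% lower. Psmb8, an immunoproteasome subunit, averaged 262 ± 8.63 TPM in knockout cells and 223 ± 11.4 TPM in control cells. Tap2, a subunit of the peptide transporter, averaged 50.8 ± 3.08 TPM in knockout cells and 42.4 ± 0.766 TPM in control cells. H2-Q7 read 2.12, 1.54 and 4.30 TPM in knockout libraries and 6.20, 5.54 and 4.80 TPM in control libraries, a fall that rests on low values of a gene with close copies.

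Genes associated with the M2 state were mostly higher in knockout cells. Of 21 tested members, 14 rose and 2 fell, beside 12.7% and 18.3% of all tested genes, with a median log2 fold change of 0.48. Tgm2, transglutaminase 2, read 314, 385 and 351 TPM in knockout libraries and 70.7, 86.6 and 77.6 TPM in control libraries. Its log2 fold change was 2.14 ± 0.10 (SE, adjusted p = 1.71e-11), and no library of one group reached the other. Flt1, a receptor for vascular endothelial growth factor, read 50.4, 57.7 and 61.9 TPM in knockout libraries and 12.2, 10.9 and 11.5 TPM in control libraries (log2 fold change 2.20). Cd36, a scavenger receptor that takes up oxidised lipoproteins, read 129, 139 and 129 TPM in knockout libraries and 29.7, 34.6 and 32.9 TPM in control libraries (log2 fold change 2.00). The beta-glucan receptor Clec7a averaged 31.7 ± 0.754 TPM in knockout cells and 11.99 ± 1.002 TPM in control cells.

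The lectins used as M2 markers moved less. Mrc1, the mannose receptor, was low in both groups, at 2.81, 2.90 and 2.58 TPM in knockout libraries and 1.75, 1.63 and 1.70 TPM in control libraries (log2 fold change 0.48, adjusted p = 0.000182). Clec10a, a galactose lectin, averaged 31.5 ± 0.480 TPM in knockout cells and 26.1 ± 1.71 TPM in control cells, and its call was lost in 5 alternatives. Msr1, a class A scavenger receptor, went the other way, with 39.4, 40.7 and 39.1 TPM in knockout libraries and 62.9, 66.3 and 67.6 TPM in control libraries (log2 fold change -0.71, adjusted p = 9.62e-08). Chil3, Retnla and Ccl17, markers of M2 macrophages in mouse tissue, were listed at 0 in all 6 libraries. Cd163 and Ccl22 did not pass 0.06 TPM in any of them.

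Arg1, arginase 1, was the most abundant of the M2 markers, at 5191, 5097 and 4922 TPM in knockout libraries and 1831, 1941 and 1857 TPM in control libraries. The groups were far apart and their spread was small, yet the gene was not called with all 6 groups in one model (log2 fold change 1.43, SE 0.53, adjusted p = 0.0599). That model shares the spread of a gene over all 18 libraries. Without stimulation Arg1 read 0.59, 4.83 and 6.58 TPM in knockout libraries and 0.34, 0 and 0.07 TPM in control libraries, where small differences are large on a log scale. With the 6 M2 libraries alone the log2 fold change was the same and the adjusted p was 2.46e-10.

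**Figure D2:**
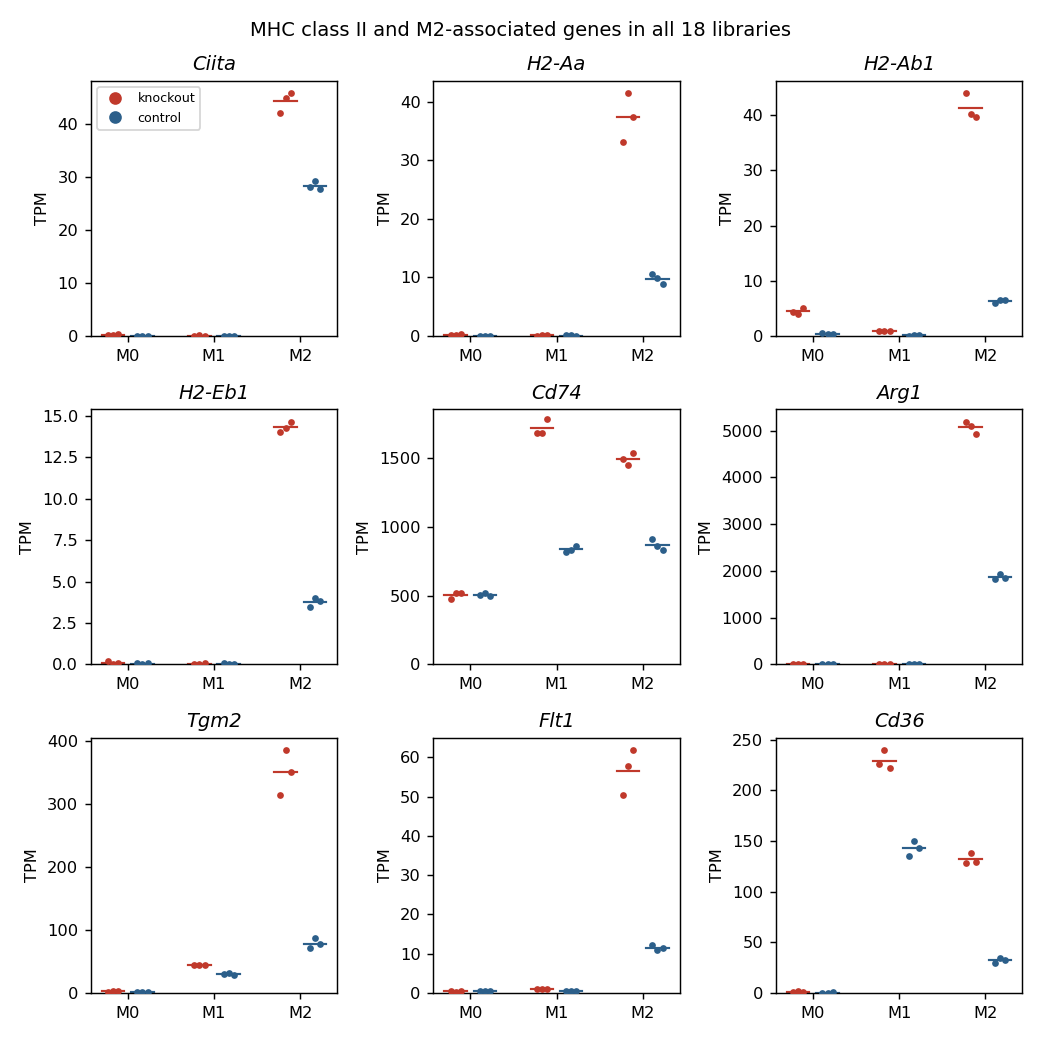
Level in TPM of 9 genes in all 18 libraries, by condition on the horizontal axis, with 1 point per library, knockout in red left of control in blue, and a line at each mean of 3. Under M2 the knockout libraries lie above the control libraries in every panel. Ciita, H2-Aa, H2-Eb1 and Arg1 lie near 0 in the other conditions.

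Receptors and signal proteins for the M2 cytokines changed by smaller steps. Of 23 tested members of the interleukin receptor, JAK-STAT and SOCS list, 10 were higher and 2 lower, with a median of 0.11. Over all tested genes, 12.7% were higher and 18.3% lower. After trimmed-mean factors the list had 13 higher and 0 lower. Il13ra2, a receptor that binds IL-13 and is known as a decoy, read 15.0, 18.4 and 14.2 TPM in knockout libraries and 5.71, 4.90 and 7.14 TPM in control libraries (log2 fold change 1.29, adjusted p = 1.10e-06). Socs3, an inhibitor that STAT3 induces, read 362, 382 and 372 TPM in knockout libraries and 177, 180.1 and 186 TPM in control libraries (log2 fold change 1.03, adjusted p = 2.64e-11). Il13ra1, the chain that pairs with the IL-4 receptor, averaged 94.7 ± 4.12 TPM in knockout cells and 72.4 ± 1.14 TPM in control cells. Stat6 averaged 151 ± 6.55 TPM in knockout cells and 130.3 ± 3.18 TPM in control cells, a log2 fold change of 0.21.

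Several classical targets of these cytokines did not pass the test. Cish, an inhibitor that cytokines induce through STAT factors, read 121, 131 and 135 TPM in knockout libraries and 144, 134 and 133 TPM in control libraries (adjusted p = 0.340). Socs1 read 106, 113 and 115 TPM in knockout libraries and 111, 103 and 102 TPM in control libraries (adjusted p = 0.578). Irf4, which IL-4 induces, averaged 35.1 ± 3.77 TPM in knockout cells and 37.3 ± 1.12 TPM in control cells (adjusted p = 0.472). The receptor chains Il4ra, with 33.1 ± 0.711 TPM in knockout cells and 38.4 ± 1.15 TPM in control cells, and Il10ra, with 47.7 ± 1.15 TPM in knockout cells and 44.2 ± 0.598 TPM in control cells, missed the threshold (adjusted p = 0.0557 and 0.0797). Both passed it under 2 alternatives.

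The TGF-beta list had members moving both ways, 7 of 28 tested higher and 4 lower, with a median of 0.03, beside 12.7% higher and 18.3% lower over all tested genes. The 2 receptor chains differed in direction. Tgfbr1 read 82.5, 95.0 and 95.8 TPM in knockout libraries and 138, 131 and 138 TPM in control libraries (log2 fold change -0.57, adjusted p = 1.501e-07). Tgfbr2 read 60.8, 65.3 and 70.5 TPM in knockout libraries and 48.0, 45.3 and 47.2 TPM in control libraries (log2 fold change 0.48, adjusted p = 6.45e-08). Ldlrad4, an inhibitor of SMAD signalling, averaged 6.98 ± 0.582 TPM in knockout cells and 1.24 ± 0.318 TPM in control cells. Tgfbi, a matrix protein named for its induction by TGF-beta, averaged 20.5 ± 1.90 TPM in knockout cells and 10.5 ± 0.221 TPM in control cells. Spsb1, a SOCS box protein that marks other proteins for degradation, read 3.39, 3.96 and 4.15 TPM in knockout libraries and 15.6, 12.3 and 12.4 TPM in control libraries. The SMAD targets Id1 and Pmepa1 missed the threshold, with adjusted p-values of 0.0596 and 0.0571 and levels that were lower in each knockout library than in any control library. With the M2 groups fitted alone both were called lower, with adjusted p-values of 0.0101 for Id1 and 0.00238 for Pmepa1. Id1 averaged 133 ± 13.2 TPM in knockout cells and 161 ± 6.89 TPM in control cells, and Pmepa1 averaged 57.1 ± 1.16 TPM in knockout cells and 67.0 ± 1.36 TPM in control cells.

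The 14 largest rises among named genes with at least 5 TPM were led by Pcdh7, a protocadherin of cell contacts. It read 121, 139.8 and 144 TPM in knockout libraries and 4.64, 5.55 and 4.70 TPM in control libraries, and its log2 fold change reached 4.51 ± 0.06 (SE, adjusted p = 1.54e-20). The aldo-keto reductase Akr1c12 averaged 25.02 ± 2.43 TPM in knockout cells and 2.29 ± 0.590 TPM in control cells, with a close paralog beside it. Hpn, the membrane protease hepsin, read 6.56, 8.64 and 7.89 TPM in knockout libraries and 0.24, 0.19 and 0.11 TPM in control libraries. Afp, the fetal plasma protein alpha-fetoprotein, averaged 17.4 ± 0.991 TPM in knockout cells and 1.99 ± 0.520 TPM in control cells. These 4 genes were also higher in every knockout library than in any control library without stimulation and under M1.

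Tmem26, a membrane protein, was likewise higher in every knockout library of the other conditions, and under M1 averaged 17.5 ± 1.47 TPM in knockout cells and 1.79 ± 0.11 TPM in control cells. Anpep, the surface peptidase CD13, read 49.2, 55.0 and 58.7 TPM in knockout libraries and 12.6, 10.8 and 11.8 TPM in control libraries under M2, and did not pass 0.13 TPM without stimulation or 0.20 TPM under M1. Flt1 did not pass 0.56 TPM in any unstimulated library. Asb11, a substrate adaptor of ubiquitin ligases, averaged 12.4 ± 0.208 TPM in knockout cells and 2.24 ± 0.01 TPM in control cells under M2, and 3.78 ± 0.348 TPM in knockout cells and 4.59 ± 0.197 TPM in control cells under M1. Ccl4, a chemokine of the CC family, read 136, 135 and 139 TPM in knockout libraries and 26.6, 33.8 and 31.7 TPM in control libraries, and its neighbour and close relative Ccl3 averaged 132 ± 13.4 TPM in knockout cells and 61.6 ± 4.69 TPM in control cells. The remaining members of the 14 were Apobec2, Cystm1, H2-Ab1, H2-Ea-ps and Tgm2.

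The 14 largest falls included genes that were nearly absent from knockout cells. Rhox5, a homeobox gene of the X chromosome known from the reproductive tract, read 0.26, 0.27 and 0.14 TPM in knockout libraries and 76.8, 80.0 and 82.3 TPM in control libraries (log2 fold change -6.04, adjusted p = 1.54e-20). Gpr34, a receptor for lysophosphatidylserine, read 0.30, 0.16 and 0.38 TPM in knockout libraries and 49.2, 48.6 and 49.8 TPM in control libraries (log2 fold change -5.30). P2ry12, an ADP receptor of platelets and microglia, read 0.37, 0.09 and 0.17 TPM in knockout libraries and 11.3, 12.1 and 11.0 TPM in control libraries (log2 fold change -3.37). Fam172a was listed at 0 in all 3 knockout libraries and read 12.2, 11.2 and 11.8 TPM in control libraries.

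The losses of Fam172a and Rhox5 were not confined to M2. Fam172a did not pass 0.05 TPM in any knockout library of the other conditions, against 10.8, 11.0 and 12.4 TPM in unstimulated control libraries. Rhox5 did not pass 0.28 TPM in those knockout libraries, against 73.55, 70.8 and 71.3 TPM in unstimulated control libraries. Zfp97, a zinc finger gene, had 0.21, 0.31 and 0 TPM in knockout libraries and 7.53, 6.25 and 6.73 TPM in control libraries under M2. Cd200r2, of the CD200 receptor family, averaged 2.87 ± 0.454 TPM in knockout cells and 20.0 ± 0.979 TPM in control cells. Pirb, which binds MHC class I, averaged 1.54 ± 0.296 TPM in knockout cells and 8.27 ± 0.139 TPM in control cells. Neurl3, a ubiquitin ligase, averaged 9.36 ± 0.698 TPM in knockout cells and 31.1 ± 0.386 TPM in control cells. Under M1 Neurl3 went the other way, with 20.6 ± 0.806 TPM in knockout cells and 15.6 ± 0.422 TPM in control cells. The remaining falls were Espnl, Ccdc38, Serpina3g, Spsb1 and Serpinb6b, besides Kdm7a itself.

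**Figure D3:**
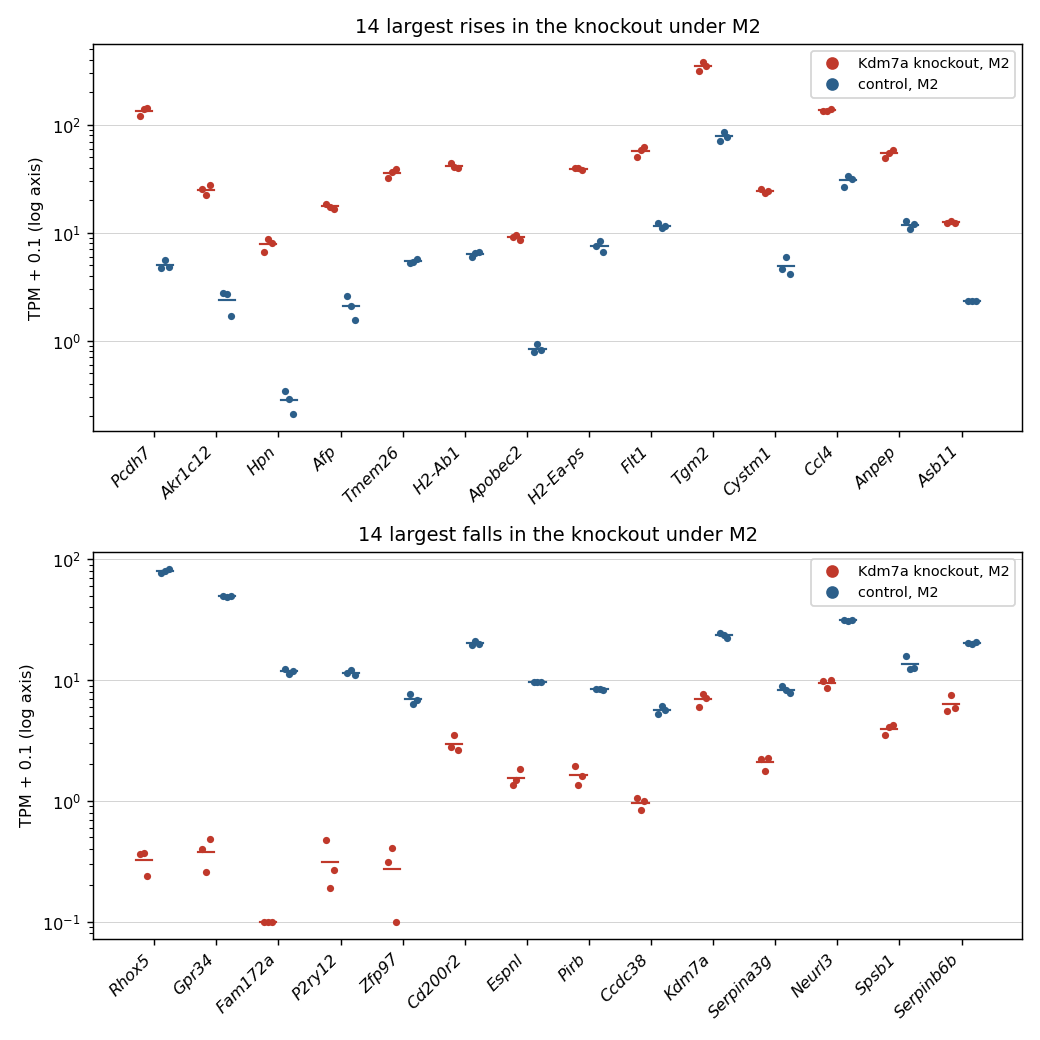
TPM plus 0.1 on a log axis for the 14 largest rises (top) and the 14 largest falls (bottom) under M2, with 1 point per library, knockout in red left of control in blue, and a line at each mean of 3. No point of a knockout group reaches its control group, and Fam172a lies at 0.1 because its 3 knockout values are 0.

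Cd86, the ligand of CD28 on antigen-presenting cells, read 1.39, 1.18 and 1.23 TPM in knockout libraries and 6.01, 4.93 and 5.14 TPM in control libraries (log2 fold change -1.49, adjusted p = 1.22e-12). It was lower in each knockout library in all 3 conditions, and without stimulation averaged 2.997 ± 0.0404 TPM in knockout cells and 11.7 ± 0.896 TPM in control cells. Of the 22 tested costimulatory and checkpoint molecules, 5 were higher and 8 lower, beside 12.7% and 18.3% of all tested genes. Their median was -0.09. Cd200r1, an inhibitory receptor for CD200, averaged 17.1 ± 0.371 TPM in knockout cells and 35.7 ± 1.504 TPM in control cells. The collagen receptor Lair1, also inhibitory, averaged 19.6 ± 1.24 TPM in knockout cells and 10.6 ± 0.960 TPM in control cells.

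Of 30 tested M1-associated genes, 5 were higher and 6 lower, beside 12.7% and 18.3% of all tested genes. The filter ran over all 18 libraries, and 13 of the 36 measured members stayed below 1 TPM in every M2 library. The count of lower members was 3 without control replicate 2 and 14 without control replicate 3. With the M2 groups fitted alone, 17 members were tested, of which 5 were higher and 3 lower. Nos2, inducible nitric oxide synthase, read 0.76, 1.04 and 1.13 TPM in knockout libraries and 2.04, 5.24 and 0.23 TPM in control libraries, which overlapped (adjusted p = 0.363). The spread of the control libraries was shared by other M1 transcripts. For the 20 most abundant M1 genes that unstimulated control cells hold at under 1% of that level, the median was 0.0694, 0.111 and 0.101% of the M1 level in knockout libraries and 0.156, 0.272 and 0.0836% in control libraries. Il1b did not exceed 1.35 TPM in any M2 library. Tnf averaged 9.44 ± 1.04 TPM in knockout cells and 11.0 ± 1.08 TPM in control cells, with overlapping libraries and a call that 4 alternatives lost, among them leaving out control replicate 2.

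Of 50 tested interferon-stimulated genes, 23 fell in knockout cells, 5 rose and 22 were not called, beside 18.3% of all tested genes that were lower and 12.7% that were higher. The median of the list was -0.21. The filter ran over all 18 libraries, and 4 members stayed below 1 TPM in every M2 library. With the M2 groups fitted alone, 42 members were tested, of which 17 fell and 4 rose. With knockout replicate 1 and control replicate 2 left out, a check added after the data had been seen, 19 fell and 6 rose. Without knockout replicate 3, 3 rose. Usp18, which removes ISG15 from proteins, read 8.46, 8.21 and 8.79 TPM in knockout libraries and 15.2, 15.6 and 16.2 TPM in control libraries (log2 fold change -0.81, adjusted p = 1.03e-08). Oas2, a sensor of double-stranded RNA, averaged 4.03 ± 0.155 TPM in knockout cells and 7.71 ± 0.110 TPM in control cells. Irf7, the factor that amplifies interferon production, averaged 10.4 ± 1.24 TPM in knockout cells and 17.7 ± 2.18 TPM in control cells. Cxcl10, a chemokine for T cells, read 2.62, 2.08 and 2.01 TPM in knockout libraries and 7.22, 6.91 and 7.16 TPM in control libraries (log2 fold change -1.33, adjusted p = 4.96e-10). By their median, the M1 transcripts described above stood highest in control replicates 1 and 2, but not each of them did, and their part in the result was not tested.

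Of 25 tested LXR and PPAR genes, 8 were higher and 2 lower, beside 12.7% and 18.3% of all tested genes. Nr1h3, the liver X receptor alpha, averaged 20.9 ± 1.15 TPM in knockout cells and 10.9 ± 0.797 TPM in control cells. Lipa, the acid lipase of lysosomes, read 831, 834 and 848 TPM in knockout libraries and 524, 524 and 512 TPM in control libraries (log2 fold change 0.69, adjusted p = 2.41e-13). Of 37 tested lysosomal genes, 15 were higher and 6 lower, beside the same shares over all tested genes. The protease Ctsd averaged 1214 ± 51.1 TPM in knockout cells and 1921 ± 84.2 TPM in control cells. Gpnmb, a glycoprotein of lysosomes and melanosomes, read 49.0, 53.1 and 53.9 TPM in knockout libraries and 107, 113 and 112 TPM in control libraries. The summed level of the list was 11309.6 to 11665 TPM in knockout libraries and 12155 to 12236.5 TPM in control libraries.

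Lysozyme, a defining product of macrophages, was lower as well. Lyz2 read 1098, 987 and 1018 TPM in knockout libraries and 1967, 1985 and 1989.8 TPM in control libraries (log2 fold change -0.94, adjusted p = 8.53e-13), and its near-identical copy Lyz1 averaged 19.1 ± 2.11 TPM in knockout cells and 35.7 ± 1.39 TPM in control cells. Cd14, the lipopolysaccharide coreceptor, went the other way, with 308, 275 and 290.1 TPM in knockout libraries and 185, 183 and 184 TPM in control libraries. The identity list as a whole had 7 of 20 tested members higher and 5 lower, beside 12.7% and 18.3% of all tested genes.

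Of 40 tested scavenger, lectin, Fc and pattern receptors, 16 were higher and 12 lower, beside 12.7% and 18.3% of all tested genes. Gpr34 and P2ry12 were among the falls and Cd36 and Clec7a among the rises. Ocstamp, which takes part in the fusion of osteoclasts and giant cells, averaged 53.6 ± 3.87 TPM in knockout cells and 14.4 ± 1.60 TPM in control cells. Of the other genes of the osteoclast list, Acp5, the tartrate-resistant phosphatase, averaged 12.8 ± 1.01 TPM in knockout cells and 20.1 ± 0.766 TPM in control cells, and Car2, carbonic anhydrase 2, averaged 5.40 ± 0.806 TPM in knockout cells and 10.9 ± 0.974 TPM in control cells. The osteoclast list stood at 4 higher and 4 lower of 19 tested, beside the same shares over all tested genes.

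Of 37 tested genes of glycolysis and of the hypoxia-inducible factors, 25 were higher and 3 lower, by small steps with a median of 0.14. Over all tested genes, 12.7% were higher and 18.3% lower. Egln3, an oxygen-sensing hydroxylase, averaged 29.6 ± 2.84 TPM in knockout cells and 14.4 ± 0.652 TPM in control cells. Ndrg1 averaged 183 ± 15.2 TPM in knockout cells and 111 ± 4.12 TPM in control cells. Of the 27 tested NRF2 and iron genes, 13 were higher and 4 lower. Hmox1, heme oxygenase 1, read 338, 379 and 373 TPM in knockout libraries and 209.8, 218 and 221 TPM in control libraries (log2 fold change 0.74). The cystine transporter Slc7a11 was lower, at 2.81 ± 0.545 TPM in knockout cells and 6.95 ± 0.336 TPM in control cells. Oxidative phosphorylation genes gave no direction that held across scalings, with 4 of 55 higher and 14 lower as deposited, and 8 and 5 after trimmed-mean factors.

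Of 43 tested cell cycle genes, 25 fell and 2 rose, with a median of -0.21, and 15 fell without knockout replicate 1 and control replicate 2. Over all tested genes, 18.3% fell and 12.7% rose. Cdk1, the mitotic kinase, averaged 79.0 ± 4.28 TPM in knockout cells and 102 ± 3.12 TPM in control cells, a log2 fold change of -0.37. Mki67 read 91.3, 118 and 128 TPM in knockout libraries and 178, 146 and 142 TPM in control libraries, and 4 alternatives lost its call. Of 33 tested genes of the integrated stress and unfolded protein responses, 16 fell, 2 rose and 15 were not called, with a median of -0.10, beside 18.3% of all tested genes that were lower. Ddit3, the factor CHOP, read 41.5, 45.6 and 45.6 TPM in knockout libraries and 78.7, 80.8 and 66.3 TPM in control libraries, while Atf3 averaged 202 ± 5.04 TPM in knockout cells and 134 ± 4.14 TPM in control cells. Of 27 tested p53 targets, 13 fell and 1, the death receptor Fas, rose, and 7 fell without knockout replicate 1. With the M2 groups fitted alone, 7 of 24 tested fell. Cdkn1a, the inhibitor p21, averaged 276 ± 1.25 TPM in knockout cells and 375 ± 20.4 TPM in control cells.

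Of 31 tested histone methyltransferases and demethylases, Kdm7a included, 8 were lower and 1 higher, beside 18.3% and 12.7% of all tested genes, and 1 of the 8 is Kdm7a itself. Without knockout replicate 1 and control replicate 2, 4 were lower. The demethylase Kdm4a averaged 51.6 ± 4.37 TPM in knockout cells and 62.7 ± 3.40 TPM in control cells, a log2 fold change of -0.28. Ezh1, a catalytic subunit of the complex that methylates lysine 27 of histone H3, averaged 11.9 ± 0.665 TPM in knockout cells and 14.1 ± 0.561 TPM in control cells.

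**Figure D4:**
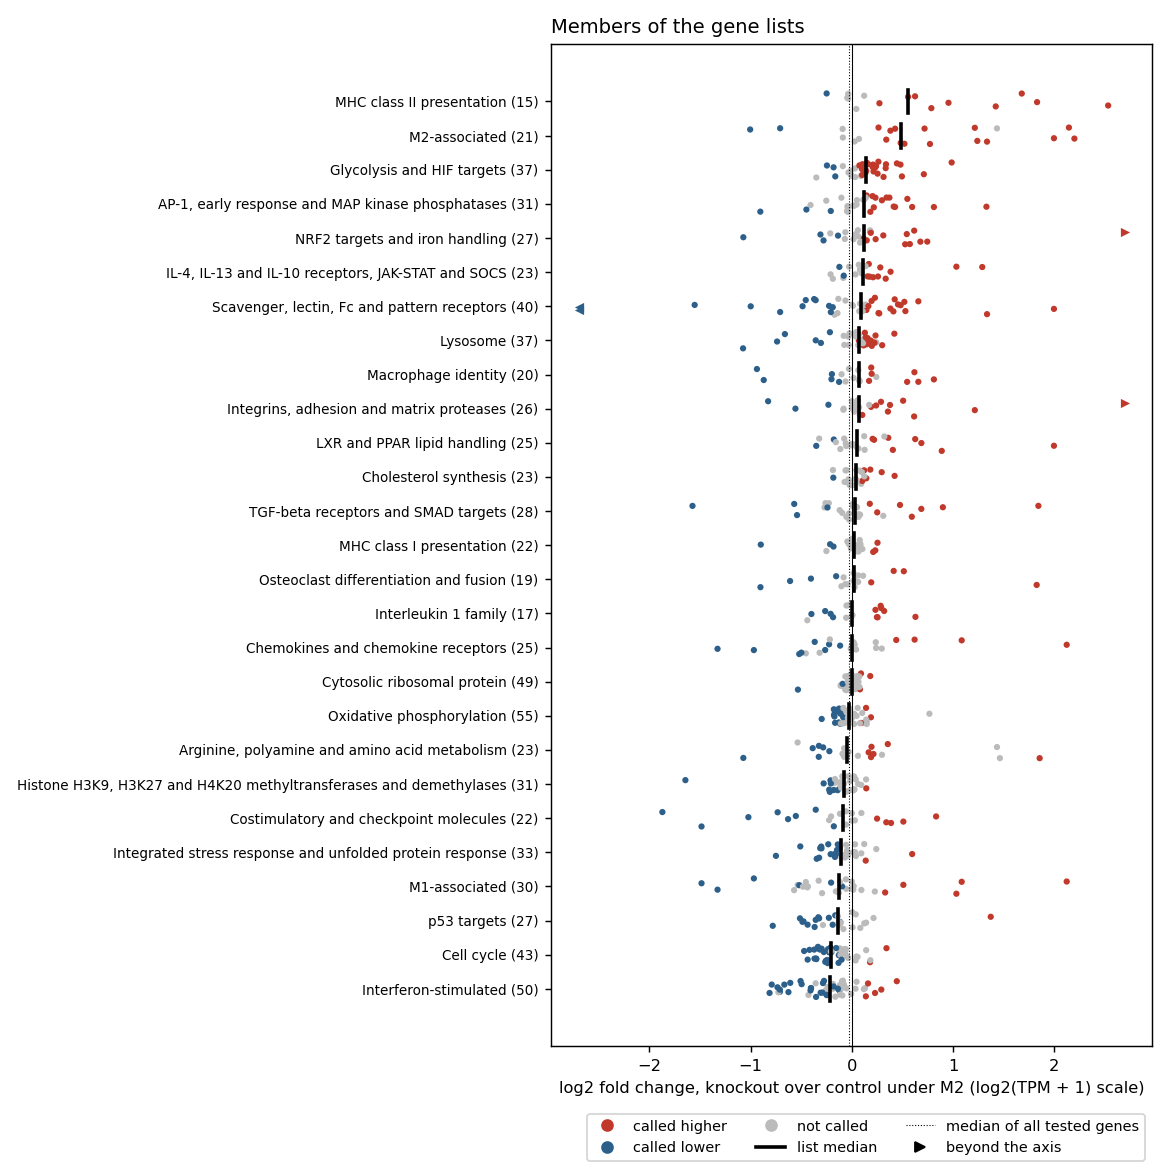
Log2 fold changes of knockout over control under M2 on the log2(TPM + 1) scale for the tested members of 27 gene lists, with the number tested in brackets and 1 point per gene. A thick bar marks each list's median, which runs from 0.56 for MHC class II to -0.21 for interferon-stimulated genes, and the dotted line marks the median of all tested genes.

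Whether the knockout differed from control in another way under M2 than elsewhere was tested as a difference of differences. Against unstimulated cells, 1629 genes passed (14.1%), 815 positive and 814 negative. Against M1, 4177 passed (36.2%), 2574 positive and 1603 negative. The median difference over all tested genes was -0.03 against M0 and 0.03 against M1. How the splits between directions change with scaling is not given here. The genes changed by 2-fold or more under M2 were then read in the other conditions, whose libraries do not enter the fold change under M2 but share its filter and its estimate of spread, and so had a part in the calls. Of the 92 that rose, 77 also lay above 0 without stimulation and 36 were higher there by 2-fold or more, with a median difference of 0.74. Of the 59 that fell, 57 lay below 0 without stimulation and 31 were lower by 2-fold or more, with a median of -1.05. Over all 11548 tested genes, 5934 lay above 0 and 5535 below 0 without stimulation, with steps of 2-fold or more upward in 61 and downward in 63. Under M1 the 92 had a median of 0.40 and the 59 a median of -0.87, against -0.06 over all tested genes. In unstimulated control cells, 58 of the 92 averaged below 1 TPM.

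The lists were counted in the same tests. Of 15 tested class II genes, 8 had a positive difference of differences against M0 and 1 a negative one. Over all 11548 tested genes, 815 were positive and 814 negative. On the log2(TPM + 1) scale, genes near 0 TPM without stimulation, such as H2-Aa and H2-Eb1, show almost no genotype difference there. Their call under M2 thus largely carries into this count. H2-Ab1 was positive. Yet its ratio of knockout to control TPM was larger without stimulation (4.46 and 0.437) than under M2 (41.3 and 6.31). Of 21 M2-associated genes, 10 were positive and 2 negative. Of 50 interferon-stimulated genes, 3 were positive and 23 negative, and of 43 cell cycle genes 1 was positive and 13 were negative. The 33 stress response genes went the other way, with 17 positive and 2 negative, although 16 of them were lower under M2. All these counts are against M0. Against M1, class II genes were 6 positive and 4 negative, M2-associated genes 11 and 3, and interferon-stimulated genes 7 and 13. Cell cycle genes were 15 positive and 7 negative against M1, and stress response genes 12 and 9. Over all tested genes, 2574 were positive and 1603 negative against M1. Against M0, Flt1 had the largest positive difference of differences among named genes, 2.33 on the log2 scale (adjusted p = 1.30e-10). Msr1 had one of 1.96 although it was lower in knockout cells under M2, since it was lower by more without stimulation. There it read 0.81, 1.31 and 1.21 TPM in knockout libraries and 11.8, 12.1 and 13.35 TPM in control libraries. Siglech, a lectin of the sialic acid binding family, had a negative difference of -2.31. It averaged 2.88 ± 0.229 TPM in knockout cells and 5.95 ± 0.317 TPM in control cells under M2, and 29.9 ± 0.771 TPM in knockout cells and 10.2 ± 0.689 TPM in control cells without stimulation.

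**Figure D5:**
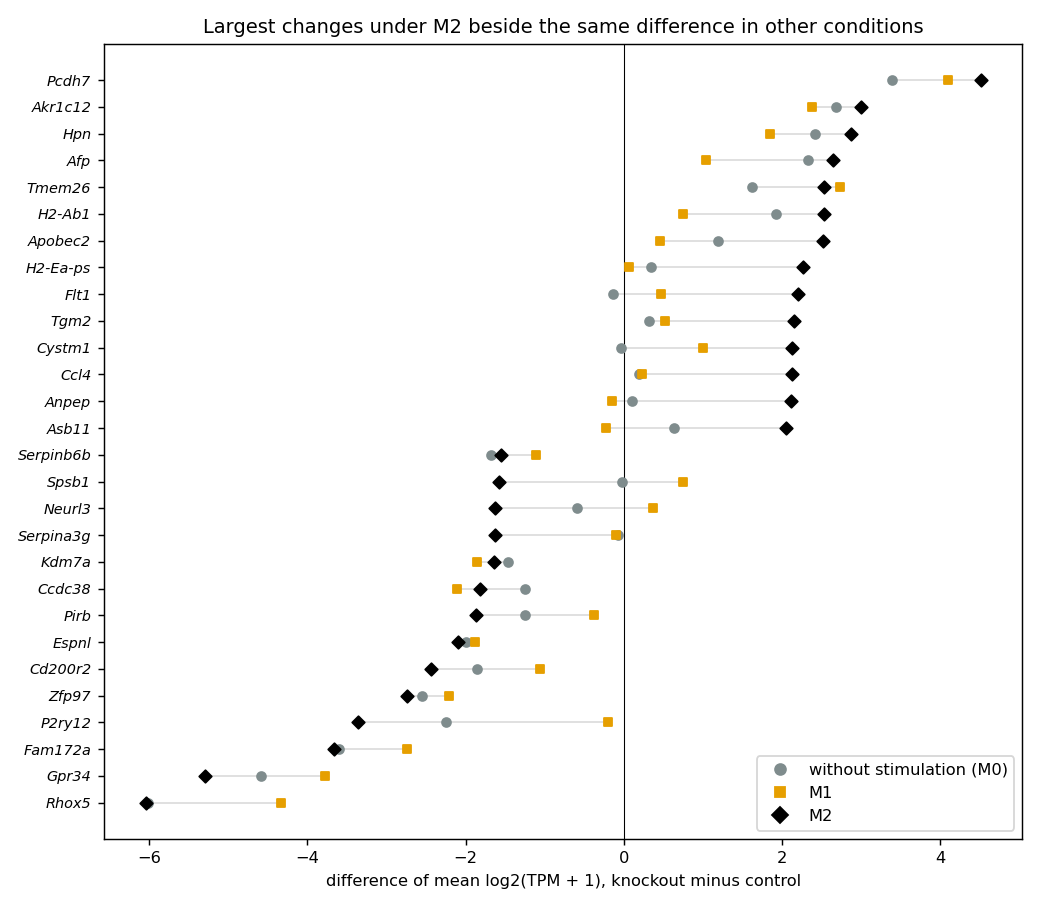
Difference of mean log2(TPM + 1), knockout minus control, for the 14 largest rises and 14 largest falls under M2 (diamonds), with the same difference without stimulation (circles) and under M1 (squares). Rhox5, Fam172a, Espnl and Zfp97 lie far below 0 in all 3 conditions, while Flt1, Anpep and Serpina3g lie near 0 without stimulation.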

How the data were processed

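Poly(A) RNA was sequenced from 18 libraries in 6 groups of 3, and groups were taken from the sample titles. The deposited values are TPM that the authors computed per gene symbol. Trim Galore and the build mm10 are listed per the submitters' processing notes, with no role or version. Which aligner, quantification tool and annotation were used is not given in the sources used here. Depth, strand and the treatment of reads shared by gene copies are therefore unknown, and values of close paralogs are uncertain.

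Of 24411 symbols, the 11548 that reached 1 TPM in 3 or more libraries went into limma-trend (limma 3.58.1, R 4.3.3) with robust moderation of variances, fitted to log2(TPM + 1), in a single model of the 6 group means. Tests are two-sided, and the threshold was 0.05 on p adjusted by Benjamini-Hochberg over all tested genes. The fit was tested on simulated data in which a gene had the same spread in every group. That simulation cannot show how the fit treats genes whose spread differs between groups, such as Arg1. The 3 comparisons were the knockout under M2 and its difference from the knockout without stimulation and under M1. The 30 gene lists, with members from general knowledge, are described by counts only. The comparison, its lists and the genes to name were chosen with earlier results of these data known.

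Named genes are Kdm7a; the called genes with the 14 greatest rises and the 14 greatest falls, given 5 TPM or more as the mean of the higher group, no overlap of libraries and a proper gene name; 26 fixed markers; up to 4 called members of each list; and the 6 largest positive and 6 largest negative values of each difference of differences. Genes named outside this rule are said to be so or stand in pairs of neighbours. Symbols were matched to RefSeq positions for 10966 tested genes. Alternatives were trimmed-mean and median-ratio factors on TPM, no variance trend, leaving out the filter or raising it to 5 TPM, a pseudocount of 0.1 TPM, a replicate block, a fit of the compared groups alone, and the omission of each library in turn. A fit without 2 libraries was added after the data had been seen.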

Additional observations from a re-analysis of the deposited data

Results flagged for a closer look

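The difference between genotypes under M2 was tested against that without stimulation, and 1629 genes passed. The largest positive differences among the genes named by rule were 2.33 for Flt1, 2.16 for Cystm1, 2.01 for Anpep, 1.96 for Msr1, 1.94 for Ccl4 and 1.92 for H2-Ea-ps, on the log2 scale. Cystm1, a small membrane protein, averaged 24.3 ± 1.10 TPM in knockout cells and 4.83 ± 0.947 TPM in control cells under M2, and 0.433 ± 0.206 TPM in knockout cells and 0.457 ± 0.0802 TPM in control cells without stimulation.

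The largest negative differences were -2.31 for Siglech, -1.91 for Snora65, -1.56 for Serpina3g, -1.55 for Spsb1, -1.49 for Cp and -1.46 for Il4i1. Serpina3g, a serine protease inhibitor, averaged 1.98 ± 0.272 TPM in knockout cells and 8.24 ± 0.554 TPM in control cells under M2, and 0.117 ± 0.0586 TPM in knockout cells and 0.173 ± 0.0702 TPM in control cells without stimulation. Il4i1, an amino acid oxidase that IL-4 induces, averaged 76.7 ± 3.34 TPM in knockout cells and 62.2 ± 2.26 TPM in control cells under M2, with no overlap. It was not called with all groups in the model (adjusted p = 0.288) and was called higher with the M2 groups fitted alone (adjusted p = 0.000859). Without stimulation it averaged 2.91 ± 0.821 TPM in knockout cells, and in control cells it did not pass 0.47 TPM. Snora65, a small nucleolar RNA, was listed at 0 in all 3 knockout libraries under M2.

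Against the genotype difference under M1, 4177 genes passed. The largest positive differences were 3.78 for Ccl2, 3.28 for Hbegf, 3.17 for Il1rn, 3.01 for Stfa3, 2.84 for Plk2 and 2.74 for Cd300lh. Hbegf, a growth factor of the EGF family, averaged 15.5 ± 0.786 TPM in knockout cells and 4.66 ± 0.267 TPM in control cells under M2, and 1.47 ± 0.359 TPM in knockout cells and 7.18 ± 0.880 TPM in control cells under M1. Cd300lh averaged 19.8 ± 1.95 TPM in knockout cells and 9.62 ± 2.15 TPM in control cells under M2, and 10.8 ± 1.15 TPM in knockout cells and 38.5 ± 1.14 TPM in control cells under M1. Ccl2, Il1rn, Stfa3 and Plk2 did not pass 0.67 TPM in any M2 library. Their differences come from M1, where Ccl2, a chemokine for monocytes, averaged 8.89 ± 1.09 TPM in knockout cells and 114 ± 7.20 TPM in control cells.

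The largest negative differences were -3.17 for P2ry12, -2.99 for Ccl22, -2.87 for Ghrh, -2.65 for Tnfrsf9, -2.33 for Spsb1 and -2.21 for Gstt1. P2ry12 did not pass 0.24 TPM in any M1 library of either genotype. Ccl22, Ghrh and Tnfrsf9 did not pass 0.38 TPM in any M2 library. Gstt1, a glutathione transferase, averaged 4.01 ± 0.610 TPM in knockout cells and 7.87 ± 1.46 TPM in control cells under M2, and 30.5 ± 2.57 TPM in knockout cells and 11.0 ± 0.555 TPM in control cells under M1.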

How the results depend on the processing

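Of 131 called named genes, 115 kept their direction and call in every alternative tried, 16 lost the call in at least 1, and 0 changed sign. With a filter of 5 TPM, 36 genes fell by 2-fold or more, and with a pseudocount of 0.1 TPM, 146 rose and 138 fell by 2-fold or more, since a smaller pseudocount enlarges the fold change of low genes. With each library left out in turn, 1116 to 1882 genes were called higher and 1606 to 1934 lower, 91 to 99 rose and 58 to 66 fell by 2-fold or more, and 160 to 208 list members were higher and 147 to 177 lower. The differences against M0 ran from 646 to 1120 positive and 571 to 864 negative, and those against M1 from 2277 to 2954 positive and 1441 to 1646 negative. Deviations from the group means were hardly correlated between same-numbered M2 libraries of the 2 genotypes (correlations -0.0111, 0.0182 and -0.0140). Whether same-numbered libraries were handled together cannot be told from this. A replicate block called 3530 genes in place of 3570. Without knockout replicate 1 and control replicate 2, 3199 genes were called. Nos2 was called lower only without control replicate 3 (adjusted p = 0.00623), and Ccl2 higher only without knockout replicate 1, alone or together with control replicate 2. Rps27 and Rps23 lost their calls in 10 alternatives each and Il1rn in 6. No count depth is known, so how far low values are limited by counting cannot be given.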

Other observations

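Counts for groups not described above stand beside 12.7% higher and 18.3% lower over all tested genes. Of 31 tested AP-1, early response and MAP kinase phosphatase genes, 14 were higher in knockout cells and 3 lower, with a median of 0.12. Batf3, a partner of AP-1 factors known from dendritic cells, read 7.26, 4.86 and 4.92 TPM in knockout libraries and 1.70, 1.33 and 1.87 TPM in control libraries, and was listed at 0 in all 6 unstimulated libraries. Of 26 tested integrins, adhesion molecules and matrix proteases, 10 were higher and 3 lower. Itgax, the integrin chain CD11c, read 11.1, 15.2 and 13.2 TPM in knockout libraries and 4.50, 5.30 and 5.44 TPM in control libraries, and did not pass 0.32 TPM in the other conditions. Plau, the urokinase protease, read 108, 118 and 123 TPM in knockout libraries and 204, 206 and 209.8 TPM in control libraries. Of 17 tested genes of the interleukin 1 family, 7 were higher and 4 lower, and the lower calls were all lost without control replicate 1. Of the 20 measured members, 8 stayed below 1 TPM in every M2 library. With the M2 groups fitted alone, 11 members were tested, of which 7 were higher and 0 lower. The count of lower members was 2 without control replicate 2 or without any single knockout library. The IL-33 receptor Il1rl1 averaged 29.2 ± 1.68 TPM in knockout cells and 18.5 ± 1.19 TPM in control cells.

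Of 23 tested arginine, polyamine and amino acid genes, 6 were higher and 6 lower, beside 12.7% and 18.3% of all tested genes. Qprt, an enzyme of NAD synthesis, averaged 27.9 ± 0.209 TPM in knockout cells and 6.99 ± 0.261 TPM in control cells, and the amino acid transporter Slc7a5 averaged 178 ± 8.01 TPM in knockout cells and 233 ± 6.88 TPM in control cells. Of 23 tested genes of cholesterol synthesis, 6 were higher and 1 lower, and 3 were higher without knockout replicate 3 or without control replicate 1. Of 25 tested chemokines and receptors, 4 were higher and 8 lower, beside the same shares, and 5 were lower without control replicate 1. Of the 37 measured members of that list, 20 stayed below 1 TPM in every M2 library. Of 49 tested ribosomal protein genes, 3 were higher and 2 lower as deposited, 7 and 0 after trimmed-mean factors, and 4 and 13 without knockout replicate 1.

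Genes called by 2-fold or more that lie next to each other among the tested genes formed 10 pairs, and in all 10 both members moved the same way. Besides the class II genes, they included P2ry13 (log2 fold change -1.45) beside P2ry12 (-3.37), Ccl3 (1.09) beside Ccl4 (2.12), Wfdc17 (1.74) beside Ccl4, Serpina3n (-1.26) beside Serpina3g (-1.63) and Rhox2d (-1.15) beside Rhox5 (-6.04). Several are relatives in a gene cluster, whose values are uncertain because the treatment of shared reads is unknown. By chromosome, the share of tested genes called lower ran from 14.1% to 23.7%, leaving out the 4 genes of chromosome Y, and that called higher from 8.39% to 18.1%. Chromosome 17 stood at the high end for lower and at the low end for higher genes. It held 8 genes that rose by 2-fold or more, H2-Ab1, H2-Aa and H2-Eb1 among them, and chromosome 4 also held 8.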
